A study of Mus musculus with 8 samples.

Results

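The genes described here are 48 genes of the lysosome and of autophagy, chosen by name for their roles, with earlier results of these data known. They comprised 11 proteases, 14 lipid and glycan hydrolases with their cofactors, 6 lysosomal membrane proteins, 5 subunits of the proton pump, 2 transcription factors and 10 genes of the autophagy machinery. All 48 symbols matched 1 gene each among the 56884 genes in the count tables, and 47 of them passed the filter on low counts, which left 12412 genes tested. The liver transcriptome of 3 DIO mice was compared with that of 5 DIO + DHA mice, with 1 library for each mouse. DIO mice were C57BL/6J females with obesity induced by a high-fat diet whose lipids supplied 45% of the energy, and all 8 mice had eaten it for 4 months before the groups were formed. DIO mice then stayed on this diet until 18 months of age, with tocopherols added to match those of the concentrate described next. For DIO + DHA mice, a concentrate made from fish oil took the place of 15% of the lipids by weight over the same time. Each g of it held 683.4 mg of docosahexaenoic acid (DHA), 46.7 mg of eicosapentaenoic acid and 838.9 mg of n-3 fatty acids in total, as triglycerides. Both groups were therefore aged and obese, and no lean or chow-fed liver was analysed here. Livers of both groups were taken after an overnight fast.

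Depth ranged from 1723800 counts, in DIO replicate 1, to 5690347, and the median of the 8 libraries was 4495644. Hepatocyte genes were abundant in every library, with albumin (Alb) at 39970 ± 2136 CPM in DIO (SD, n = 3) and 43522 ± 4081 CPM in DIO + DHA (SD, n = 5). CPM, the count of each gene relative to the library total after TMM scaling, is not divided by gene length, so levels are compared below between libraries and not between genes. Genes of other tissues were higher in the DIO + DHA libraries. The summed CPM of 24 skeletal muscle genes was 45.3 to 52.9 in DIO and 1526 to 1631 in DIO + DHA. That of 14 genes of stratified squamous epithelium was 182.5 to 197 against 293 to 313. Perp made up most of the squamous sum in both groups. The median log2 fold change of the 8 tested squamous genes was 5.66. The part of RNA from these other tissues in the results below was not tested. TMM factors computed without those genes left the same 16 members called. That refit changed only the scaling and removed no reads from the members, so it cannot show that part.

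Lysosomes are acidic organelles in which hydrolases degrade proteins, lipids, glycans and nucleic acids brought in by endocytosis, phagocytosis or autophagy. A vacuolar proton pump in their membrane keeps the interior acidic, and transcription factors of the TFEB and TFE3 type bind E-box elements (the CLEAR motif) before many lysosomal genes. In the liver, hepatocytes use lysosomal acid lipase to break down cholesteryl esters and triglycerides delivered by lipoproteins or by autophagy of lipid droplets, while Kupffer cells and other macrophages are rich in cathepsins and other hydrolases. In autophagy, proteins of the LC3 and GABARAP families are attached to the membrane of the growing autophagosome, which then fuses with the lysosome.

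The letters of the motif were searched on both strands of a 300-base window, from 250 bases before to 50 bases after the start of the canonical transcript (GRCm39, GENCODE vM39). The core CACGTG was found for 12 of the 48 members (25%), against 7.81% of 21770 protein-coding promoters and 10.1% of 11268 promoters of tested genes. The longer palindrome TCACGTGA, which contains the core, was found for 4 members (8.33%), against 1.11% and 1.71%. Those 4 were Cln3, Ctsb, Gla, with a pair of sites, and Mcoln1. Their sites are shown as the stretches of the set that carry the full palindrome, with the motif in capitals and read along the strand of the gene.
Cln3 (chr7:126182512-126182541, minus strand, first motif base 111 bases before the start): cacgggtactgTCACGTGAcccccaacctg
Ctsb (chr14:63359879-63359908, plus strand, first motif base at base 14 of the transcript): gcggtcaagcaTCACGTGAcgaatcagccc
Gla (chrX:133501964-133501993, minus strand, 78 bases before the start): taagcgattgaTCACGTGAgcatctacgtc
Gla (chrX:133501931-133501960, minus strand, 45 bases before the start): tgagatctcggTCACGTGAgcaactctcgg
Mcoln1 (chr8:3550462-3550491, plus strand, first motif base at base 22 of the transcript): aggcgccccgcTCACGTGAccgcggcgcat
The other 8 members with the core alone were Atg5, Atp6v1a, Ctsd, Gaa, Gabarap, Glb1, Lamp1 and Naglu. At the threshold given below, 2 of the 12 members with the core fell (Ctsb and Naglu), 1 rose (Gaa) and 9 were not called. Of the 35 tested members without it, 11 fell and 2 rose. Over all genes tested 7.28% were lower and 7.89% higher. These counts are small, and whether the motif goes with the direction of change was not tested. A match is a description of the letters and not a bound site.

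Of the 47 members tested, 13 fell and 3 rose in DIO + DHA livers at an adjusted p under 0.05 (edgeR quasi-likelihood test, Benjamini-Hochberg over all genes tested). That is 27.7% lower and 6.38% higher, where 7.28% of all genes tested were lower and 7.89% were higher. All genes tested are not matched to the members in abundance: 18 of the 47 lie above the 90th percentile of mean CPM. Small changes are easier to call in genes with many counts. Of the 13 falls, 6 were proteases, led by cathepsin S (Ctss), legumain (Lgmn) and cathepsin C (Ctsc), and 3 were lipid and glycan hydrolases. The genes that rose were lysosomal acid lipase (Lipa), acid alpha-glucosidase (Gaa) and the LC3 gene Map1lc3a. The median log2 fold change of the members was -0.17, against 0.0011 for all genes tested, and 36 of 47 had a negative estimate, against 49.87% of all genes. In 15 members all DIO + DHA libraries were below all DIO libraries and in 5 all were above. Over all genes tested such separation occurred in 8.88% and 9.54%. The summed CPM of the 48 members was 6764 to 7159 in DIO and 6151 to 6420 in DIO + DHA.

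**Figure D1:**
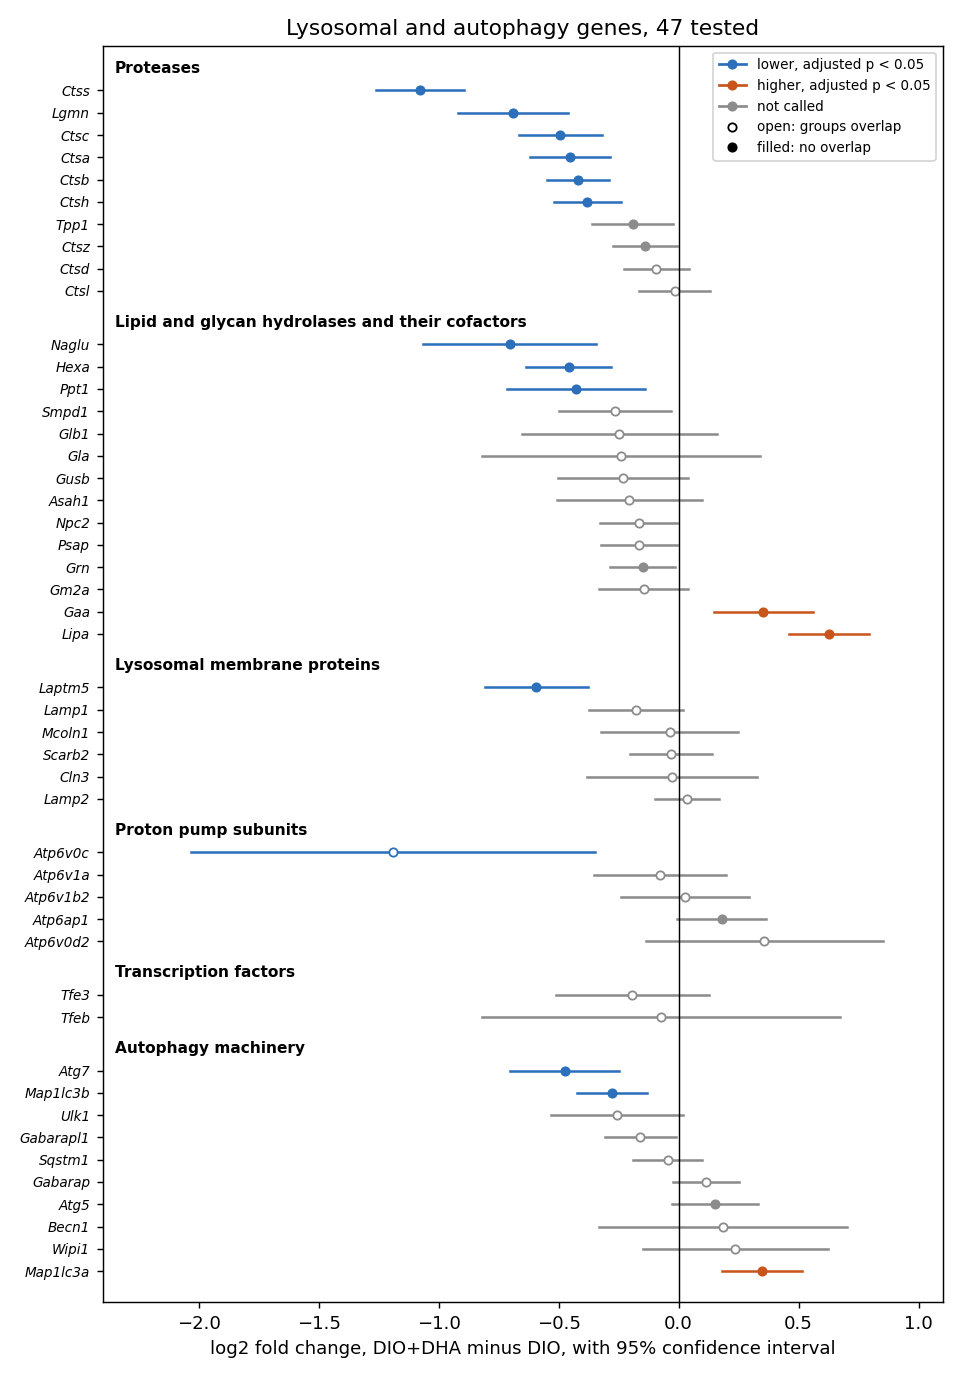
The log2 fold change of each tested member (DIO + DHA minus DIO, horizontal axis) is drawn with its 95% confidence interval, by role, in blue where lower, orange where higher and grey where not called at an adjusted p under 0.05. Filled points mark members whose groups do not overlap. All 10 tested proteases lie left of 0, Lipa lies farthest to the right of the called members at 0.63, and the widest interval is that of Atp6v0c.

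Most proteases fell, with 6 of the 10 tested lower (60%) and none higher, where 7.28% of all genes tested were lower and 7.89% were higher. No protease was higher at an unadjusted p under 0.05 in edgeR either, and DESeq2 and limma-voom each called 6 lower and 0 higher. The median log2 fold change of the 10 was -0.40. The summed CPM of all 11 was 3323 to 3561 in DIO and 2808 to 2970 in DIO + DHA, a mean change of -17.1%. In the same libraries the summed CPM of 25 Kupffer cell and macrophage markers changed by -43.4%, from 1214 to 1326 in DIO to 704 to 743 in DIO + DHA, and 19 of the 24 tested markers were lower and 1 higher. The part of this in the protease values was not tested. In whole liver, fewer cells of a type and less RNA per cell cannot be told apart.

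Ctss (ENSMUSG00000038642.11, chr3:95434097-95463714) encodes cathepsin S, a cysteine protease of antigen-presenting cells that trims the invariant chain of MHC class II. Its level was 123, 106 and 102 CPM in DIO replicates 1, 4 and 5, and 54.8, 56.6, 46.7, 46.1 and 52.4 CPM in DIO + DHA replicates 1, 2, 4, 5 and 6. Every DIO + DHA library lay far below the lowest DIO library. The mean fell by 52.6%, from 110.1 ± 11.1 CPM to 51.3 ± 4.72 CPM (log2 fold change -1.08, SE 0.09, edgeR adjusted p = 1.54e-14). Lgmn (ENSMUSG00000021190.15, chr12:102360343-102406072) encodes legumain, an asparaginyl endopeptidase that also processes cathepsins. The same order of libraries gave 37.1, 42.2 and 46.7 CPM in DIO and 25.2, 25.8, 24.97, 28.3 and 27.9 CPM in DIO + DHA. The DIO + DHA libraries were close together and below each DIO library. Lgmn fell by 38.1% (log2 fold change -0.69, SE 0.11, edgeR adjusted p = 4.14e-06). Ctsc, cathepsin C or dipeptidyl peptidase 1, which activates granule serine proteases, measured 94.0, 101 and 99.0 CPM in DIO and 71.2, 66.7, 72.1, 64.4 and 75.1 CPM in DIO + DHA. The spread was small in both groups beside the gap between them, and the gene fell by 28.9% (log2 fold change -0.49, SE 0.09, edgeR adjusted p = 1.22e-05).

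Ctsa encodes cathepsin A, a carboxypeptidase that also protects beta-galactosidase and neuraminidase in a complex. It measured 129, 110.5 and 115.5 CPM in DIO and 85.3, 81.1, 91.3, 88.1 and 81.9 CPM in DIO + DHA. No DIO + DHA library reached 100 CPM and all DIO libraries exceeded it. Ctsa fell by 27.0% (log2 fold change -0.45, SE 0.08, edgeR adjusted p = 2.83e-05). Ctsb, cathepsin B, had the most counts of the proteases, 32877 over the 8 libraries. Its values were 1105, 1179 and 1249 CPM in DIO and 873, 802, 944, 911 and 876 CPM in DIO + DHA. The groups did not overlap, and the gene, one of those with the palindrome shown above, fell by 25.2% (log2 fold change -0.42, SE 0.06, edgeR adjusted p = 7.32e-07). All of the 500 exon bases at the 3′ end of Ctsb also lie in exons of Fdft1 on the other strand, and the counting did not use strand, so reads there were not assigned by strand. Ctsh, cathepsin H, an aminopeptidase, measured 300.4, 326 and 343 CPM in DIO and 264, 255, 243, 237 and 247 CPM in DIO + DHA. The lowest DIO library was above the highest DIO + DHA library. Ctsh fell by 23.1% (log2 fold change -0.38, SE 0.07, edgeR adjusted p = 3.15e-05).

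The other 5 proteases were not called. Ctsz, cathepsin Z, a carboxypeptidase, had group means of 487 ± 12.2 CPM (SD, n = 3) and 443 ± 27.7 CPM (SD, n = 5), without overlap, and edgeR gave an adjusted p of 0.178. Tpp1, tripeptidyl peptidase 1, did not overlap either, with means of 97.4 ± 2.73 and 85.5 ± 4.15 CPM and an adjusted p of 0.125 in edgeR. Cathepsin D (Ctsd), the main aspartic protease of the lysosome, averaged 455 ± 33.9 and 428 ± 19.3 CPM, with a 95% interval of the log2 difference from -0.23 to 0.04. Cathepsin L (Ctsl), a cysteine endopeptidase like cathepsin S, averaged 571 ± 74.7 and 566 ± 45.4 CPM, with an interval from -0.16 to 0.13. That interval does not hold the change of cathepsin S. Gm49369 overlaps 34.4% of the exon bases of Ctsd on the same strand, and Gm47123 overlaps part of those of Ctsl on the other strand. None of the 500 exon bases at the 3′ end of Ctsd or Ctsl is shared, and the libraries sample mainly such ends. Ctsk, the collagen-degrading cathepsin K of osteoclasts, was the member that failed the filter, with 1, 2 and 3 counts in DIO and 2, 3, 0, 3 and 0 counts in DIO + DHA.

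**Figure D2:**
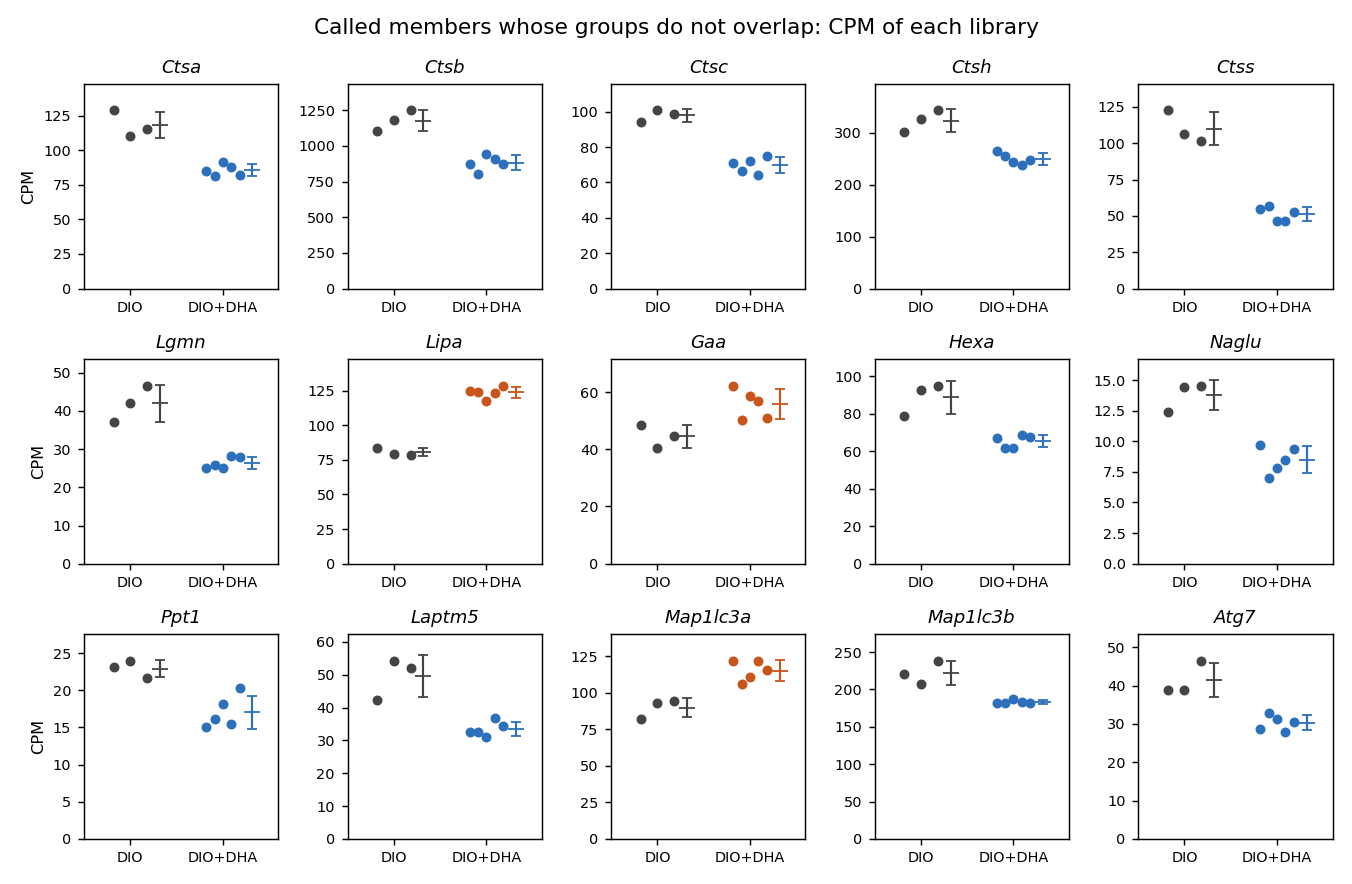
CPM of each library (vertical axis, from 0) for the 15 called members whose groups do not overlap, with DIO in dark grey and DIO + DHA in blue where lower and orange where higher. The bars beside the points give the mean and SD (n = 3 and n = 5). Ctss shows the widest relative gap, from 102 CPM or more in DIO to 56.6 CPM or less in DIO + DHA, and in Lipa all 5 DIO + DHA libraries lie at 118 CPM or more.

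Among the 14 lipid and glycan hydrolases and their cofactors, 3 fell (21.4%) and 2 rose (14.3%), where 7.28% of all genes tested were lower and 7.89% were higher. The 2 genes that rose were Lipa and Gaa. Lipa (ENSMUSG00000024781.17, chr19:34469718-34504874) encodes lysosomal acid lipase, which hydrolyses cholesteryl esters and triglycerides. It measured 83.8, 79.3 and 78.8 CPM in DIO and 124.8, 124, 118, 123 and 129 CPM in DIO + DHA. The libraries of each group were close together and the groups were far apart. Lipa rose from 80.7 ± 2.76 to 124 ± 3.91 CPM, a change of 54.3% (log2 fold change 0.63, SE 0.08, edgeR adjusted p = 2.34e-08). Gaa encodes acid alpha-glucosidase, which degrades glycogen in the lysosome. Its values were 48.4, 40.6 and 44.5 CPM in DIO and 62.3, 50.3, 58.5, 56.9 and 50.9 CPM in DIO + DHA. The highest DIO library was just below the lowest of the other group, and the change was 27.7% (log2 fold change 0.35, SE 0.10, edgeR adjusted p = 0.0117). This call was lost without DIO replicate 4 (adjusted p = 0.126) and without DIO + DHA replicate 1 (adjusted p = 0.0646). It was also lost at the stricter limma-voom threshold (B above 0), the criterion the study used.

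The 3 hydrolases that fell act on glycans, glycolipids and lipid-modified proteins. Naglu, an N-acetylglucosaminidase of heparan sulfate breakdown, measured 12.4, 14.4 and 14.6 CPM in DIO and 9.72, 7.04, 7.85, 8.43 and 9.39 CPM in DIO + DHA. All libraries of DIO + DHA were under those of DIO at these low counts, and the gene fell by 38.6% (log2 fold change -0.70, SE 0.18, edgeR adjusted p = 0.00308). Hexa, the alpha subunit of beta-hexosaminidase, which removes a sugar from GM2 ganglioside, measured 78.8, 92.9 and 95.1 CPM in DIO and 67.2, 62.0, 61.7, 68.6 and 67.7 CPM in DIO + DHA. The lowest DIO library stood apart from its group yet above every DIO + DHA library. Hexa fell by 27.2% (log2 fold change -0.46, SE 0.09, edgeR adjusted p = 7.08e-05). Ppt1, palmitoyl-protein thioesterase 1, measured 23.1, 23.98 and 21.6 CPM in DIO and 15.1, 16.1, 18.2, 15.5 and 20.3 CPM in DIO + DHA. The gap between the groups was narrow, and the gene fell by 25.6% (log2 fold change -0.43, SE 0.14, edgeR adjusted p = 0.0329). The Ppt1 call was kept in 2 of the 8 fits that left out a library, with an adjusted p of up to 0.184, and DESeq2 did not make it (adjusted p = 0.111).

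Grn, progranulin, the precursor of lysosomal granulins, had the most counts in this role group. Its level was 361, 384 and 389 CPM in DIO and 344, 339, 337, 348 and 337 CPM in DIO + DHA. The groups did not overlap, but the estimate was -0.15 on the log2 scale and was not called (SE 0.07, edgeR adjusted p = 0.134). The other 8 genes all had negative estimates, from -0.15 for Gm2a to -0.27 for Smpd1, and none was called. Acid sphingomyelinase (Smpd1), which cleaves sphingomyelin, averaged 36.6 ± 3.28 and 31.1 ± 3.23 CPM (adjusted p = 0.127). Prosaposin (Psap), from which the saposin cofactors are cut, averaged 158 ± 8.22 and 142 ± 12.1 CPM (adjusted p = 0.174). Npc2, which hands cholesterol to NPC1, averaged 145 ± 14.6 and 130.3 ± 9.10 CPM (adjusted p = 0.181). The activator of GM2 breakdown, Gm2a, averaged 77.0 ± 3.52 and 68.5 ± 7.29 CPM. Alpha-galactosidase (Gla) averaged 4.10 ± 1.06 and 3.69 ± 0.573 CPM, beta-galactosidase (Glb1) 9.59 ± 2.76 and 8.604 ± 1.63, beta-glucuronidase (Gusb) 24.8 ± 2.89 and 21.5 ± 2.63, and acid ceramidase (Asah1) 20.5 ± 5.19 and 18.8 ± 2.91. At the depth of Gla, 127 counts in all, the 95% interval of its log2 difference ran from -0.82 to 0.34.

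Of the 6 membrane proteins, 1 fell and none rose (16.7% lower), where 7.28% of all genes tested were lower and 7.89% were higher. No other was higher at an unadjusted p under 0.05 in edgeR, and DESeq2 and limma-voom each gave 1 lower and 0 higher. Laptm5, a transmembrane protein of lysosomes in haematopoietic cells, measured 42.2, 54.3 and 52.0 CPM in DIO and 32.5, 32.5, 31.0, 36.8 and 34.5 CPM in DIO + DHA. The lowest DIO library was apart from the other DIO libraries and still above all of DIO + DHA. Laptm5 fell by 33.8% (log2 fold change -0.59, SE 0.11, edgeR adjusted p = 2.23e-05). Lamp2, a major glycoprotein of the lysosomal membrane that also takes part in chaperone-mediated autophagy, measured 401, 389.8 and 393 CPM in DIO and 420.3, 395.5, 404, 395 and 406 CPM in DIO + DHA. The groups overlapped, and the 95% interval of the log2 difference was -0.10 to 0.17, which does not hold the change of Laptm5. Lamp1, its close relative, averaged 109.5 ± 15.2 and 95.9 ± 12.7 CPM, and Scarb2, the receptor that carries glucocerebrosidase to lysosomes, 106 ± 8.10 and 102 ± 8.09 CPM. Mcoln1, a calcium channel of the lysosome, averaged 20.3 ± 1.25 and 19.7 ± 2.28 CPM, and Cln3, a membrane protein mutated in Batten disease, 11.4 ± 0.593 and 11.4 ± 1.16 CPM. None of these 4 was called (edgeR adjusted p of 0.261 to 0.948).

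The proton pump subunits showed no common direction, with a median log2 fold change of 0.03 over the 5 tested. Atp6ap1, an accessory subunit of the pump, measured 58.0, 59.1 and 59.98 CPM in DIO and 70.0, 63.7, 71.7, 64.4 and 65.7 CPM in DIO + DHA. The DIO + DHA libraries were all higher, but the difference was not called (log2 fold change 0.18, SE 0.09, edgeR adjusted p = 0.214). Atp6v0c, the subunit of the membrane ring, was called lower at 2.59 ± 0.871 and 1.19 ± 0.559 CPM (log2 fold change -1.19, SE 0.42, edgeR adjusted p = 0.0444). Its counts were 1 to 19 a library, the groups overlapped, and the call was lost in 5 of 8 fits that left out a library, with an adjusted p of up to 0.300, and in the replicate-block fit (adjusted p = 0.355). Atp6v1a and Atp6v1b2, subunits of the part that hydrolyses ATP, averaged 23.02 ± 1.17 and 21.5 ± 2.96 CPM and 24.8 ± 1.63 and 25.5 ± 3.69 CPM. Atp6v0d2, a subunit form known from osteoclasts and macrophages, averaged 6.14 ± 1.502 and 7.65 ± 2.33 CPM. None of these 3 was called (edgeR adjusted p of 0.395 to 0.932).

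Neither transcription factor was called, nor was either at an unadjusted p under 0.05 in edgeR, and DESeq2 and limma-voom called neither. Tfe3 measured 15.8, 16.2 and 20.6 CPM in DIO and 13.1, 17.4, 19.6, 16.6 and 13.3 CPM in DIO + DHA. The groups overlapped widely, and the 95% interval of the log2 difference ran from -0.51 to 0.13 (edgeR adjusted p = 0.501). Tfeb, with 87 counts over the 8 libraries, averaged 2.79 ± 0.291 and 2.87 ± 1.51 CPM. Its interval, -0.82 to 0.67, held both a fall and a rise as large as those of Naglu and Lipa. A change of that size in either direction was therefore not excluded. Transcript level does not report on the activity of these factors, which is controlled largely by their entry into the nucleus.

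Of 10 genes of the autophagy machinery, 2 fell (20%) and 1 rose (10%), and the median log2 fold change was 0.04. Over all genes tested 7.28% were lower and 7.89% higher, so the share that rose was near that of all genes. A pair of LC3 genes, whose products mark the autophagosome membrane, was called in opposite directions. Neither was called at the stricter limma-voom threshold of the study (B above 0). Map1lc3a (ENSMUSG00000027602.10, chr2:155118217-155119993) measured 82.1, 92.7 and 94.0 CPM in DIO and 121, 106, 111, 122 and 115.5 CPM in DIO + DHA. Every DIO + DHA library was above the highest DIO library, and the change was 27.2% (log2 fold change 0.35, SE 0.08, edgeR adjusted p = 0.0017). Map1lc3b (ENSMUSG00000031812.17, chr8:122317100-122325499) measured 220.5, 207 and 238 CPM in DIO and 182, 182, 188, 184 and 182 CPM in DIO + DHA. The DIO + DHA libraries were nearly equal and lay below all of DIO. Map1lc3b fell by 17.5% (log2 fold change -0.28, SE 0.07, edgeR adjusted p = 0.00424), and the call was lost without DIO replicate 5 (adjusted p = 0.101). Atg7, the enzyme that activates LC3 for its attachment to lipid, measured 38.8, 38.8 and 46.5 CPM in DIO and 28.8, 32.8, 31.4, 27.9 and 30.6 CPM in DIO + DHA. The groups were separate, with 1 DIO library well above the others. Atg7 fell by 28.0% (log2 fold change -0.47, SE 0.11, edgeR adjusted p = 0.00148), a call also lost without DIO replicate 5 (adjusted p = 0.0788).

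Sqstm1, the cargo receptor p62, which is itself degraded by autophagy, measured 398, 449 and 437 CPM in DIO and 396.5, 405, 440.3, 369.6 and 472 CPM in DIO + DHA. The groups overlapped throughout, and the 95% interval of the log2 difference was -0.19 to 0.10. Of the 500 exon bases at its 3′ end, 66.0% lie in exons of Mrnip on the other strand. Gabarap, an LC3 relative, averaged 383 ± 9.31 and 414 ± 24.1 CPM (edgeR adjusted p = 0.303), and its relative Gabarapl1 336 ± 16.2 and 302 ± 31.9 CPM (edgeR adjusted p = 0.158), with a call in 1 of the 8 fits that left out a library. Atg5, which joins Atg12 in the complex that places LC3 on membranes, did not overlap, at 67.7 ± 2.55 and 75.4 ± 2.79 CPM, and was not called (edgeR adjusted p = 0.297). Ulk1, the kinase that starts autophagy, averaged 23.8 ± 1.83 and 19.6 ± 1.55 CPM (edgeR adjusted p = 0.235). Becn1, a subunit of the lipid kinase complex, averaged 5.66 ± 1.81 and 5.90 ± 1.37 CPM, with most of its 3′ end shared with Cntd1 (79.4%), and Wipi1, which binds the lipid made by that complex, 9.002 ± 1.76 and 11.1 ± 2.16 CPM. Neither was called.

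Other lysosomal genes, taken from lists of hydrolases, membrane proteins, sorting factors and pump subunits outside the 48, also fell more often than they rose. Of 90 tested, 12 were lower (13.3%) and none higher, where 7.28% of all genes tested were lower and 7.89% were higher. In edgeR 4 were higher at an unadjusted p under 0.05, and neither DESeq2 nor limma-voom called any higher. The 12 became 5 of 91 tested without DIO replicate 5, a fit in which 642 of 12866 genes were lower, so the excess over all genes rests largely on that library. Of 30 other hydrolases, 5 fell, and the 3 of smallest p were Lyz2, lysozyme (log2 fold change -0.72, edgeR adjusted p = 1.12e-10), Man2b1, lysosomal alpha-mannosidase (-0.46, adjusted p = 7.23e-05), and Fuca1, alpha-fucosidase (-0.32, adjusted p = 0.00256). Lyz2 and the membrane protein Cd68 are also on the macrophage list. Of 27 other membrane proteins, 5 fell, led by Cd68 (-1.36, adjusted p = 3.32e-10), the metal transporter of phagosomes Slc11a1 (-1.11, adjusted p = 0.00418) and the chloride transporter Clcn7 (-0.59, adjusted p = 0.00578). Gnptg, a subunit of the enzyme that starts the mannose 6-phosphate tag, was the called gene of 18 sorting factors (-0.49, adjusted p = 0.0162), and Tcirg1 that of 15 other pump subunits (-0.54, adjusted p = 0.00335). All of the 3′ end of Gnptg is shared with Unkl on the other strand.

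The remaining autophagy and nutrient-signalling genes were called at about the background rate or below it. Of 42 other genes of the autophagy machinery, 3 fell (7.14%) and 1 rose (2.38%). Rab7, a GTPase of late endosomes that is needed for fusion with lysosomes, fell (log2 fold change -0.37, edgeR adjusted p = 0.0014). Atg14 (-0.49, adjusted p = 0.0283) and Ambra1 (-0.67, adjusted p = 0.0386), both partners of Becn1, fell as well, while Atg101, of the Ulk1 complex, rose (0.29, adjusted p = 0.0437). Of 28 relatives of TFEB and genes of nutrient signalling, 2 fell (7.14%), and both belong to the folliculin complex that acts on the mTORC1 pathway: Flcn (-0.66, adjusted p = 0.0119) and Fnip2 (-0.82, adjusted p = 0.0164). Most of these calls lie near the threshold. Over both lists together the 5 lower genes became 2 without DIO replicate 1 and 3 without DIO replicate 5 or DIO + DHA replicate 1 or 5, and DESeq2 called 1 lower and 0 higher. Atg101 kept its call in 3 of 8 fits that left out a library.

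**Figure D3:**
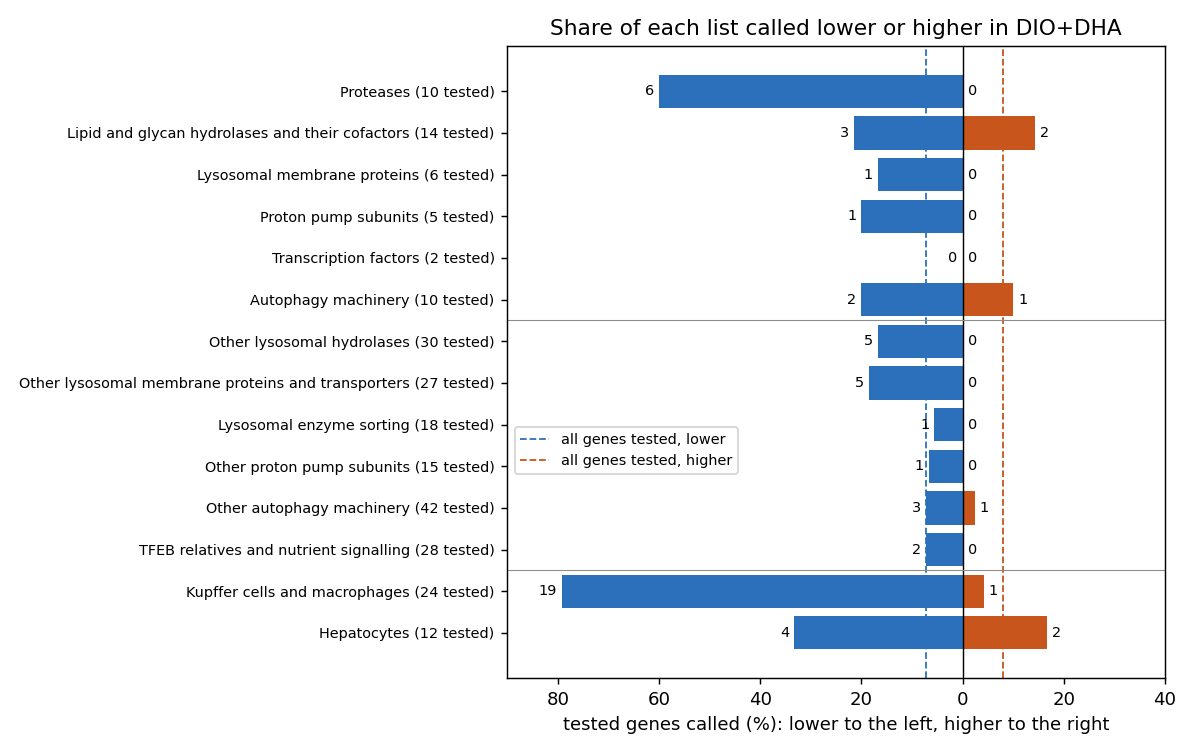
Share of the tested genes called lower (blue, to the left) or higher (orange, to the right) in DIO + DHA at an adjusted p under 0.05, for the 6 role groups, the 6 lists of other pathway genes and the macrophage and hepatocyte lists, with the number of genes at each bar and the shares over all genes tested as dashed lines. Of the lists drawn, the proteases (6 of 10 lower) and the macrophage markers (19 of 24 lower) reach farthest to the left, and none of the 4 lists of lysosomal genes outside the 48 has a gene to the right.

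The lists that could share cells with these genes were read beside them. The macrophage markers with the most counts were the complement gene C1qb, at 171 ± 11.1 CPM in DIO and 83.9 ± 2.88 CPM in DIO + DHA, and Lyz2, at 154 ± 9.60 and 92.8 ± 4.85 CPM. None of the 25 markers was at 0 in every library, and Marco, a scavenger receptor, was higher in DIO + DHA. The median log2 fold change of the 24 tested markers was -0.87, beside -0.40 for the 10 tested proteases and -1.08 for Ctss. The 12 hepatocyte genes summed to 93617 to 100258 CPM in DIO and 94487 to 108599 CPM in DIO + DHA, with a median log2 fold change of 0.0031. Of the 12, 4 were lower (33.3%) and 2 higher (16.7%), where 7.28% of all genes tested were lower and 7.89% were higher. Alb and transthyretin (Ttr), those with the most counts, were not called (edgeR adjusted p of 0.187 and 0.905). Whether macrophages or hepatocytes account for any member's change was not tested.

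**Figure D4:**
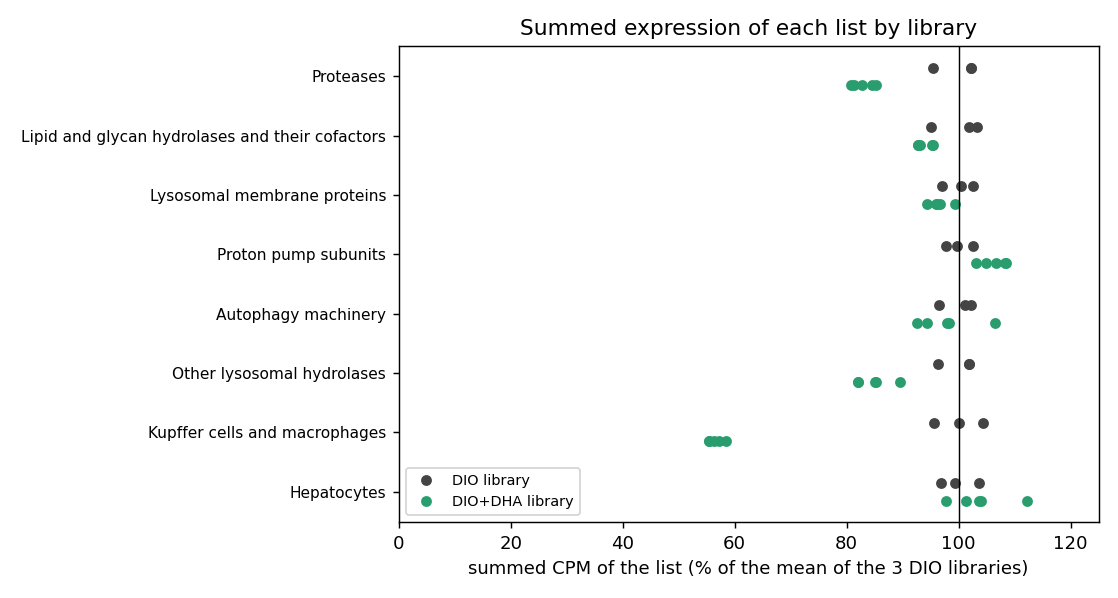
Summed CPM of each list in each library as a percentage of the mean of the 3 DIO libraries (horizontal axis, from 0), with DIO libraries in dark grey and DIO + DHA libraries in green. DIO + DHA libraries lie at 80.7 to 85.3% for the proteases and at 55.5 to 58.5% for the macrophage markers, both apart from DIO, and overlap with DIO for the autophagy machinery and the hepatocyte genes.

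The 16 called members differed in how firmly they were measured. Of these, 11 were called in each of the 8 fits that left out a library, and 10 of the 11 also under each of the 11 other alternatives: Ctsa, Ctsb, Ctsc, Ctsh, Ctss, Lgmn, Lipa, Hexa, Naglu and Laptm5. The eleventh, Map1lc3a, missed the stricter limma-voom threshold of the study (B above 0). Gaa, Ppt1, Atp6v0c, Map1lc3b and Atg7 each lost the call in at least 1 fit without a library. No called member changed sign in any alternative.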

How the data were processed

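Poly(A) RNA from liver was sequenced by an adaptation of SCRB-seq, which samples transcripts mainly at their 3′ ends. After trimming, the authors used STAR 2.7.9a for alignment to GRCm39 and featureCounts 1.6.0 to count reads on GENCODE vM33 exons, and the deposited counts are raw. The counting named no strand, and collapsing of molecular identifiers is not stated, so counts may not be independent molecules. A gene was left out if, in both groups, over 50% of libraries had under 5 counts. TMM factors and the quasi-likelihood test of edgeR 4.0.16 were applied to all 8 libraries with Benjamini-Hochberg adjustment (0.05), after a test on simulated data. Of the 56884 identifiers 56323 were named from GENCODE vM39. The members and lists were chosen with earlier results of these data known. Values of all libraries are given for called members without overlap and for the member with most counts in each role, and outside genes by smallest p, up to 3 a list and direction. Alternatives changed the scaling, test (DESeq2 1.42.0, limma-voom 3.58.1), filter, threshold and replicate block, or left out each library. Protein sequences were not analysed here.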

Additional observations from a re-analysis of the deposited data

Results flagged for a closer look

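Among the 48 members, 1 had a DIO + DHA library set apart from the other 4 by Dixon's criterion for 5 samples. Ctsl, cathepsin L, measured 486 CPM in DIO + DHA replicate 5, while the other libraries of that group measured 575 to 596 CPM. The gap was 0.813 of the range of the group, above the critical value of 0.71. Chance gives about 1 such flag in 20 groups, so 1 in 48 is no more than chance gives. The DIO group, with 3 libraries, was not examined in this way.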

How the results depend on the processing

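Of 376 results of 21 members recomputed under an alternative, 350 kept their direction and their side of the threshold, 25 lost a call with the same sign, 1 gained one and none reversed. The gain was Grn with total counts as the scaling (log2 fold change -0.17, edgeR adjusted p = 0.05). The threshold of 0.01 was left out of these 376 results, and at that threshold Atp6v0c, Gaa and Ppt1 also lost their calls. Outside those 21, Gabarapl1 gained a call without DIO + DHA replicate 6. Leaving out each library gave 2 to 3 members higher and 9 to 13 lower, the lowest without DIO replicate 5. Of the other lysosomal genes 5 to 14 were lower and 0 higher, and of the other autophagy and nutrient genes 0 to 2 were higher and 2 to 4 lower. The limma-voom threshold of B above 0 was the criterion the study used. It left 1 member higher and 10 lower, without Atp6v0c, Gaa, Map1lc3a, Map1lc3b and Ppt1. At that threshold 3 of 90 other lysosomal genes and 0 other autophagy and nutrient genes were lower. The same threshold gave 860 calls over all genes in place of 1883, and 397 of the 12412 genes tested were lower. Of the other autophagy and nutrient genes, 0 were higher with total counts as the scaling, DESeq2, limma-voom at either threshold, no filter, an adjusted p under 0.01 (1225 calls over all genes) or the block, and 1 was lower with DESeq2 or the 0.01 threshold; the cause was not tested. With the replicate number as a block, members called were 3 higher and 12 lower, and 8 other lysosomal and 2 other autophagy genes were lower. Deviations of same-numbered libraries from their group means correlated at -0.011 to -0.013. The labels do not state whether the numbers pair mice. Correlations of deviations from means of so few libraries cannot decide it. Scaling moved the median of all genes by at most 0.018 on the log2 scale. Counts under about 100 over 8 libraries, as for Tfeb, left wide intervals.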

Other observations

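Other cell-type lists are given beside the shares over all genes tested, 7.28% lower and 7.89% higher. Of 10 tested T and NK cell genes 8 were lower in DIO + DHA and none higher by edgeR, with 0 higher at an unadjusted p under 0.05 and 0 by DESeq2 or limma-voom. Ccl5, a chemokine of cytotoxic lymphocytes, averaged 103 ± 8.95 CPM in DIO (SD, n = 3) and 33.0 ± 1.83 CPM in DIO + DHA (SD, n = 5), and Nkg7, a granule protein of the same cells, 17.0 ± 2.27 and 5.43 ± 1.39 CPM. Of 10 genes of lipid-associated macrophages, 6 were lower and 2 higher. Lgals3, galectin 3, averaged 102 ± 3.12 and 43.2 ± 6.11 CPM, while Lpl, lipoprotein lipase, averaged 35.5 ± 4.30 and 77.2 ± 8.57 CPM. Of 12 genes of sinusoidal endothelium, 2 were lower, with Clec4g at 72.8 ± 9.47 and 48.3 ± 4.72 CPM and the scavenger receptor Stab2 at 38.1 ± 4.67 and 30.3 ± 5.65 CPM, not called.

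Of 11 genes of stellate cells and fibroblasts, 2 were lower and 2 higher, and Dcn, decorin, was not called at 203 ± 6.57 and 180.4 ± 7.93 CPM, while Rgs5 was lower at 23.9 ± 4.19 and 16.9 ± 2.13 CPM. None of 4 tested B and plasma cell genes was called by edgeR, DESeq2 or limma-voom, and 0 had an unadjusted p under 0.05. Igkc averaged 129 ± 12.6 and 125.2 ± 11.4 CPM, Ighm 67.2 ± 1.08 and 66.5 ± 3.59 CPM, and Mzb1 was listed at 0 in every library, with 99.8% of the 500 exon bases at its 3′ end shared with Gm50318 on the same strand. None of 4 tested neutrophil genes was called by those tools, and 1 had an unadjusted p under 0.05. S100a8 averaged 7.69 ± 0.531 and 6.89 ± 0.993 CPM and S100a9 5.06 ± 1.48 and 7.01 ± 1.80 CPM. Of 7 tested adipocyte genes 5 were higher and 1 lower, with Car3 at 1045 ± 49.7 and 1024 ± 41.2 CPM, not called, and Fabp4 higher at 17.2 ± 2.38 and 44.4 ± 5.75 CPM. All 23 tested skeletal muscle genes were higher, with Acta1 at 11.8 ± 0.274 and 545 ± 20.7 CPM and Tnnt3 at 4.40 ± 1.38 and 196 ± 17.6 CPM. Of 8 tested genes of stratified squamous epithelium 6 were higher, with a median log2 fold change of 5.66 over the 8. The 2 with the most counts changed far less, with Perp higher at 158 ± 7.34 and 190.1 ± 6.89 CPM, and Dsp not called at 26.1 ± 2.81 and 27.5 ± 3.41 CPM.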
